A study of Mus musculus with 12 samples.

Results

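Serpins are a family of protease inhibitors, and the data described here are the signals of 53 serpin genes in mouse liver on one-colour arrays. The members were all non-control probes whose gene name in the array files begins with Serpin, apart from Serpina6. This gave 72 of 41174 probes, and 38 of the 53 genes had enough signal to be tested. The arrays, 1 per mouse, fall into 4 groups of 3 mice each, which were HESKOL mice given dexamethasone, untreated HESKOL mice, wild-type mice given dexamethasone and untreated wild-type mice. Dexamethasone, a synthetic glucocorticoid, was injected into the peritoneum at 1 mg/kg, and livers were taken 6 hours later. All mice of all groups were adrenalectomized C57BL/6 males aged 8 to 10 weeks, so they lacked the adrenal source of glucocorticoids. The labels call the HESKOL animals knockout mice without spelling the name out, and they give neither the altered allele nor the cells in which it was altered. Hes1, which stands in the title of the series, is a repressor of transcription that Notch signalling induces. No vehicle injection is described for the untreated mice.

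A serpin presents an exposed loop as bait. The target protease cuts the loop, the serpin changes shape, and the protease is trapped in a covalent complex with it. The clade A serpins and several others are made by hepatocytes and secreted into blood plasma, where they hold clotting, fibrinolysis, complement and leukocyte proteases in check. The clade B serpins mostly stay inside cells, many of them leukocytes, and some family members carry hormones or fold collagen instead of inhibiting proteases. In the mouse, the genes corresponding to human SERPINA1 and SERPINA3 have multiplied, and these copies lie in a cluster on chromosome 12.

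Every value below is a log2 signal relative to the 75th percentile of its own array. A change is a difference of group means on that scale, with its standard error (SE) from a limma fit to all 12 arrays. A gene was called when its p-value, adjusted by the Benjamini-Hochberg method over all 18700 genes and unnamed probes tested, was under 0.05. The 3 arrays per group limit the precision. All 7 hepatocyte markers examined were above background on all 12 arrays. Hes1 signal ran from -3.86 to -3.02 in treated HESKOL livers, from -3.09 to -2.40 in untreated HESKOL livers, from -2.92 to -1.16 in treated wild-type livers and from -1.90 to -1.21 in untreated wild-type livers. Its change between genotypes was -1.10 (SE 0.43, limma adjusted p = 0.247) after dexamethasone and -1.12 (SE 0.43, limma adjusted p = 0.99999) without it. The altered part of the gene is not stated, so the Hes1 probe is a limited check of the labels. The glucocorticoid receptor target Tat, a hepatocyte enzyme, was called higher with dexamethasone in HESKOL liver (1.40, SE 0.29, limma adjusted p = 0.0174) and had 1.49 (SE 0.29, limma adjusted p = 0.0925) in wild-type liver. Of 3 such targets examined (Fkbp5, Tsc22d3 and Tat), 1 was called in HESKOL liver, 0 in wild-type liver and 2 in their average. Their median was 2.40 in wild-type dexamethasone replicate 1, against 3.43 to 3.75 in untreated wild-type livers. The log2 of their summed signal was 8.57 on that array, against 6.83 to 7.65 in untreated wild-type livers.

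One array stood apart and touches the results below. The root mean square deviation from the mean of the remaining group members was 0.995 for wild-type dexamethasone replicate 1 over all genes tested, and 0.463 to 0.799 for the other 11 arrays. Over the 38 serpin genes its deviation was 1.88, against 0.660 to 1.28 for the others. Results that rest on it are given with and without it. The arrays lay on 3 slides, each scanned in 1 run. Slide 1 carried HESKOL untreated replicate 1 and the 3 untreated wild-type livers. Slide 2 carried HESKOL untreated replicates 2 and 3 and wild-type dexamethasone replicates 1 and 2, and slide 3 carried the 3 treated HESKOL livers and wild-type dexamethasone replicate 3. A genotype comparison can therefore be made within 1 slide. No slide held both treated and untreated livers of 1 genotype, so a treatment effect adjusted for slide passes through the other genotype.

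Of the 53 genes, 32 were above background on all 12 arrays. A test required signal above background in every liver of 1 or more groups. Of the 15 genes not tested, 13 belonged to clade B, in which 11 of 24 genes were tested, and 12 were dim on every array, among them Serpinb5, known as maspin, and Serpina1f. Serpinb7 was above background on 4 arrays, Serpinb2 on 3 and Serpina3a on 1. In clade A, 17 of 19 genes were tested, and all 10 genes of clades C to I were. No probe carries the name Serpina1a or Serpina1c, and the probes named Serpina1d and Serpina1e list transcripts of their neighbours as well, so these alpha-1-antitrypsin copies cannot be told apart here.

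**Figure D1:**
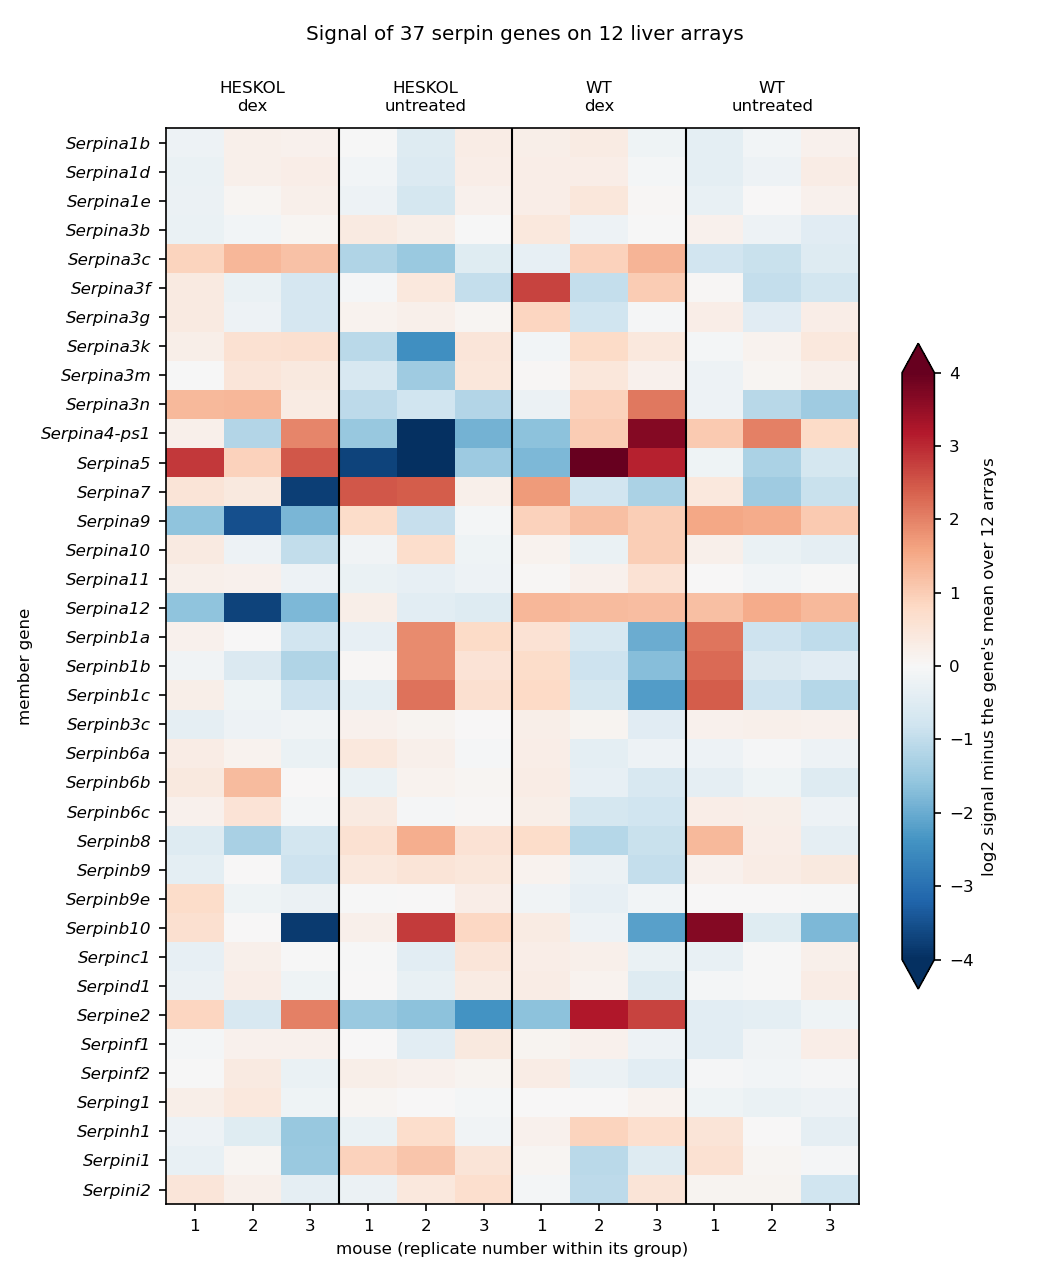
The colour shows the log2 signal of each of 37 tested serpin genes (rows) on each of the 12 arrays (columns) minus that gene's mean over the 12 arrays, with the 4 groups side by side and the scale ending at 4 log2 units in either direction. Serpina9 and Serpina12 are lowest in the 3 treated HESKOL livers, Serpina3c and Serpina3n are high in 5 of the 6 treated livers, and the plasma inhibitors of clades C, D, F and G are nearly flat.

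With dexamethasone in HESKOL liver, 5 of the 38 tested serpin genes were called. All 5 lie in the chromosome 12 cluster, which holds 18 of the 53 serpin genes. Only tested genes could be called. In the cluster all but Serpina1f and Serpina3a were tested, against 11 of 24 genes in clade B. Serpina3c, Serpina3n and Serpina5 rose, and Serpina9 and Serpina12 fell. Serpina3c and Serpina3n are mouse relatives of human alpha-1-antichymotrypsin, an inhibitor of leukocyte proteases made in the acute phase response, and Serpina5 is protein C inhibitor. Serpina9 is known in humans as centerin, from germinal centre B cells, and Serpina12 is vaspin, an adipokine that inhibits a kallikrein. The background of this comparison was high: 3.67% of all genes tested were called higher and 4.2% lower. The count of 3 higher and 2 lower stands beside a median change of -0.09 over the 38 members and of -0.002 over all genes tested.

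The promoters of 4 of these genes are shown, since 3 of them rose with a hormone whose receptor binds DNA and the fourth fell. Each sequence is the 250 bases before the start of the gene in RefSeq (build GRCm38.p6), written 5′ to 3′ along the gene's own strand. Capitals mark the letters AGAACA, the core letters bound by 1 glucocorticoid receptor monomer, searched on both strands. The positions are chr12:104153873-104154122 on the minus strand for Serpina3c, chr12:104406458-104406707 on the plus strand for Serpina3n, chr12:104100863-104101112 on the plus strand for Serpina5 and chr12:104044444-104044693 on the minus strand for Serpina12, which is the neighbouring gene that fell.
Serpina3c promoter: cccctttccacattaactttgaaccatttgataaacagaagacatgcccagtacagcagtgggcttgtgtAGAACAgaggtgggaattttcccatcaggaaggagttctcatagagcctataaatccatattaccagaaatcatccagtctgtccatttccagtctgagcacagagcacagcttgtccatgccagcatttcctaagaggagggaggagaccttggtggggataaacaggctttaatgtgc
Serpina3n promoter: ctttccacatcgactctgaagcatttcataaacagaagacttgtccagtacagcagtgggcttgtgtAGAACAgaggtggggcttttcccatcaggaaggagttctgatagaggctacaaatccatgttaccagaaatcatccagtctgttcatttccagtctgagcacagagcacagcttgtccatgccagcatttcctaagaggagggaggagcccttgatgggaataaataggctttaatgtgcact
Serpina5 promoter: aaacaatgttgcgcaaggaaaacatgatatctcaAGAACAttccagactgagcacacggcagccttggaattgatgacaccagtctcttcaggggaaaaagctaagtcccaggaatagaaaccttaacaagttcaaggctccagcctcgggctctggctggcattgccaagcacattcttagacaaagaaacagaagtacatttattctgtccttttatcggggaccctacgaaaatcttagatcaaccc
Serpina12 promoter: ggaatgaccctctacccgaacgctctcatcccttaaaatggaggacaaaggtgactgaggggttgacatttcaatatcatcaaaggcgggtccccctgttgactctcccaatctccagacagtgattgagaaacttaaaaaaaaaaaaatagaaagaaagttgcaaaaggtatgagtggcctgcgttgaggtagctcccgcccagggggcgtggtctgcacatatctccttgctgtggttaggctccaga
The first bases of the capitals lie at -180 in Serpina3c, -183 in Serpina3n and -216 in Serpina5, counted back from the gene's start, and Serpina12 has no such match. The promoters of Serpina3c and Serpina3n were identical at 229 of 247 aligned bases (92.7%), so their matches are not independent of each other. These letters occurred in 15 of 52 RefSeq promoters of serpin genes (28.8%), which cover 44 of the 53 genes, and in 16.1% of all 32851 promoters of this length. The full palindromic receptor element, AGAACA followed by any 3 bases and TGTTCT, occurred in none of the 52 and in 3 of all promoters. The letters CACNAG, known as the N box and bound by Hes proteins, occurred in 57.7% of serpin promoters and 36.7% of all, and the E box CACGTG in 0 of the 52 and 6.02% of all. The serpin shares include more than 1 promoter of some genes and promoters of related copies, such as Serpina1b, Serpina1d and Serpina1e. These promoters are therefore not independent, and the differences from all promoters were not tested. Each of the promoters of Serpina3c, Serpina3n and Serpina5 held 1 N box, and that of Serpina12 held none. Of the 15 serpin genes with the letters AGAACA, 9 were tested and 6 of these were called in no comparison, namely Serpina1b, Serpina1d, Serpina1e, Serpina3b, Serpina3f and Serpinb10. A match describes the letters and is no evidence of binding. Among the called members Serpina9 had no entry in the promoter table.

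Serpina3c had log2 signals of 6.00, 6.45 and 6.30 in treated HESKOL livers, against 3.93, 3.63 and 4.64 in untreated HESKOL livers. The groups did not overlap, and the change was 2.19 (SE 0.40, limma adjusted p = 0.0109), or 4.55-fold. In wild-type livers the signals were 4.80, 6.04 and 6.47 with dexamethasone, against 4.36, 4.24 and 4.62 without it. These groups did not overlap either, but the lowest treated liver, replicate 1, lay just above the highest untreated one, and the change of 1.37 (SE 0.40) was not called (limma adjusted p = 0.221). Without that array it was 1.85 (SE 0.30, limma adjusted p = 0.0104).

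Serpina3n, which in the mouse also inhibits granzyme B, had signals of 7.15, 7.18 and 6.20 in treated HESKOL livers and 4.80, 5.05 and 4.68 in untreated HESKOL livers. All treated livers lay above all untreated ones, with a change of 1.997 (SE 0.53, limma adjusted p = 0.0439). Treated wild-type livers had 5.61, 6.78 and 7.98, against 5.65, 4.74 and 4.44 in untreated wild-type livers. Here treated replicate 1 lay below untreated replicate 1, and the change of 1.84 (SE 0.53) was not called (limma adjusted p = 0.218). It was 2.43 (SE 0.46, limma adjusted p = 0.0179) without treated replicate 1.

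Serpina5, whose product inhibits activated protein C and other serine proteases, had the largest fitted change of the 38 genes in this comparison. Its signals were -0.66, -2.58 and -1.01 in treated HESKOL livers, against -7.20, -8.69 and -4.94 in untreated HESKOL livers, where 1 of 3 arrays was above background. The change of 5.52 (SE 1.44, limma adjusted p = 0.0413) therefore rests on untreated values that are mostly background, and its size is uncertain. In wild-type livers the signals were -5.29, 1.46 and -0.41 with dexamethasone, against -3.66, -4.75 and -4.20 without it, all above background. Treated replicate 1 was the lowest of the 6, and the other 2 treated livers were the highest. The change of 2.79 (SE 1.44, limma adjusted p = 0.491) became 4.73 (SE 1.00, limma adjusted p = 0.0256) without it. A second Serpina5 probe, dim in all untreated livers, gave 4.23 in HESKOL and 3.59 in wild-type liver.

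Serpina9 had signals of -4.05, -5.95 and -4.27 in treated HESKOL livers and -1.73, -3.38 and -2.54 in untreated HESKOL livers. The groups did not overlap, and Serpina9 fell by 2.21 (SE 0.50, limma adjusted p = 0.0245). Serpina12 had -5.69, -7.76 and -5.87 in treated HESKOL livers, the second of them not above background, and -3.84, -4.51 and -4.59 in untreated HESKOL livers. It fell by 2.13 (SE 0.45, limma adjusted p = 0.0199), again without overlap. In wild-type livers neither gene was called. The differences there were -0.05 (95% confidence interval -1.05 to 0.94) for Serpina12 and -0.34 (95% confidence interval -1.43 to 0.76) for Serpina9.

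Hepatocyte markers are given beside these genes. In HESKOL liver 2 of the 7 were called higher, Cps1 (1.37, SE 0.34, limma adjusted p = 0.0335) and Tat, and 1 lower, Ttr (-1.54, SE 0.30, limma adjusted p = 0.0141). Tat also belongs to the glucocorticoid receptor targets given above, so the list is not independent of the treatment. The median change of the list was 0.77 in HESKOL liver, 0.39 in wild-type liver and 0.59 in their average. The median log2 signal of the list was 8.06 to 8.61 in treated and 7.02 to 7.97 in untreated HESKOL livers, and 7.64 to 8.02 in treated and 7.05 to 7.56 in untreated wild-type livers, without overlap in either genotype. The log2 of its summed signal was 10.77 to 11.23 in treated and 10.0003 to 10.89 in untreated HESKOL livers, which overlapped, and 10.70 to 11.02 in treated and 10.11 to 10.59 in untreated wild-type livers, which did not. The part of hepatocyte content in the changes of Serpina3c, Serpina3n and Serpina5 was not tested.

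The calls in HESKOL liver depended on single arrays and on the slide. Without HESKOL untreated replicate 1 all 5 calls were lost. Without HESKOL untreated replicate 2 Serpina9 alone was still called, and without HESKOL dexamethasone replicate 2 Serpina12 alone was. Without wild-type dexamethasone replicate 1, which enters this comparison through the shared estimate of the spread, 9 were called, the added ones being Serpinb8, Serpinb9, Serpine2 and Serpini1, where 14.9% of all genes tested were called in either direction. Over the 12 arrays left out in turn, the call of Serpina12 was lost 2 times, those of Serpina3c and Serpina9 3 times each, that of Serpina5 8 times and that of Serpina3n 9 times. After normexp background correction Serpina3c and Serpina5 alone were called. The signs of the 5 changes were kept under every alternative run. With slide as a fixed block no member was called (1 at an unadjusted p under 0.05), and the changes were -1.85 for Serpina12, -1.71 for Serpina9, 1.07 for Serpina3c, 0.20 for Serpina3n and 3.89 for Serpina5 (limma adjusted p from 0.791 to 0.968). Under that block SEs were larger (0.69 against 0.40 for Serpina3c), and the share of all genes called under it is not given here. Treatment and slide cannot be told apart within a genotype.

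**Figure D2:**
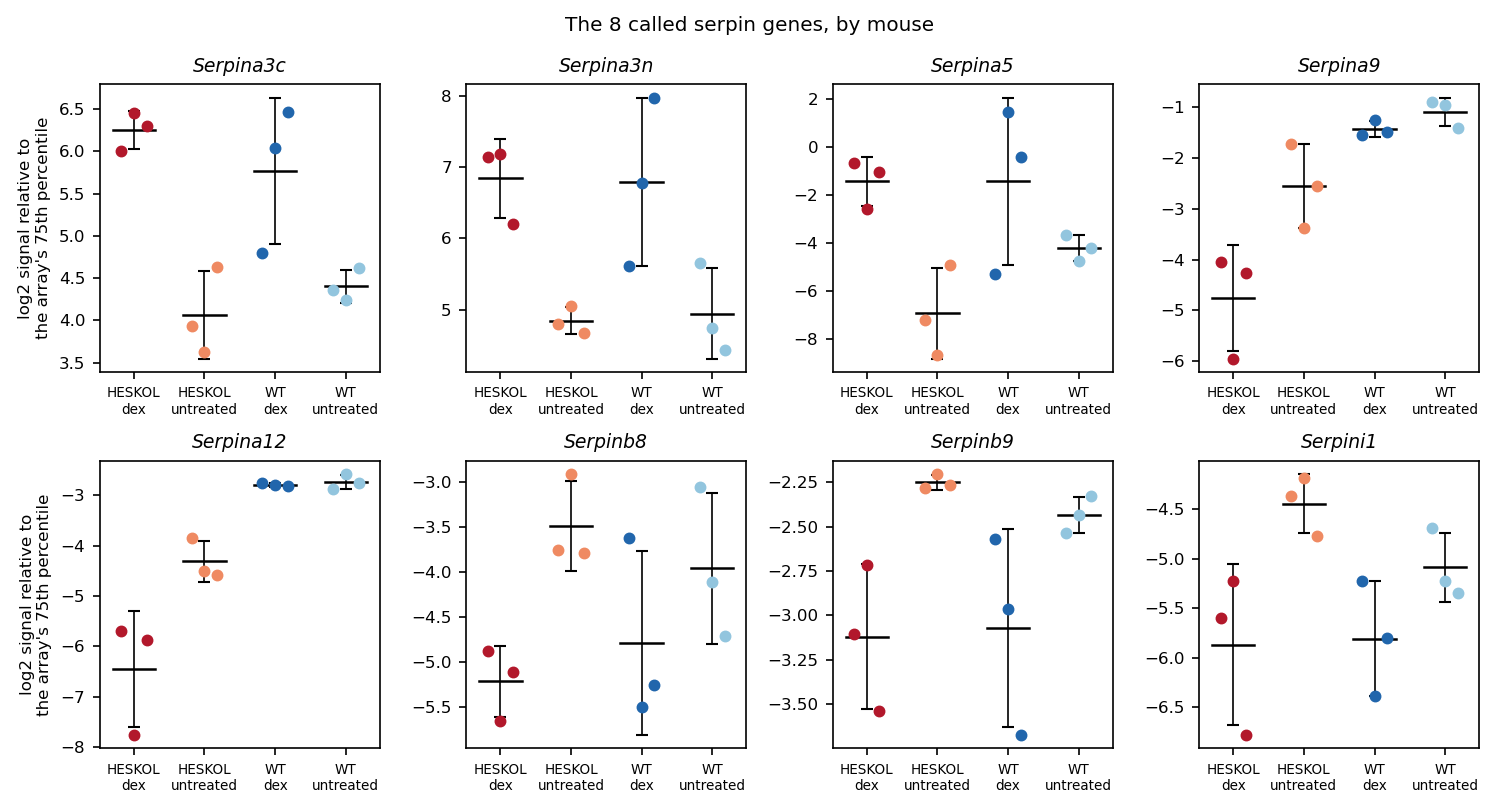
Each point is the log2 signal of 1 mouse, relative to the 75th percentile of its array, for the 8 serpin genes called in any comparison, with a line at the group mean and a bar of 1 SD (n = 3). Serpina9 and Serpina12 are low in HESKOL livers and lowest after dexamethasone, while in Serpina3c, Serpina3n and Serpina5 the lowest treated wild-type liver, replicate 1, sits near the untreated livers.

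In wild-type liver no serpin gene passed the threshold with dexamethasone, and few genes of any kind did, 0.193% in either direction. An unadjusted p under 0.05 (limma) was found for 4 of the 38 members and for 2197 of all 18700 tested. The groups of arrays did not overlap for 4 members higher and 2 lower of 38, where 12.1% of all genes tested did not overlap. In HESKOL liver 6 members were higher and 7 lower without overlap, where 34.3% of all genes tested did not overlap.

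Leaving out replicate 1 of the treated wild-type livers gave 5 called serpin genes in wild-type liver, all higher, where 5.96% of all genes tested were then called in either direction, against 0.193% with it. Among them were Serpina3c, Serpina3n, Serpina5 and Serpine2. Serpine2 is protease nexin 1, an inhibitor of thrombin and of plasminogen activators. It had -3.27, 1.59 and 1.09 in treated wild-type livers, against -2.05, -2.02 and -1.80 in untreated wild-type livers. Replicate 1 was below every untreated liver and the other 2 were above them, so the change was 1.76 (SE 1.06, limma adjusted p = 0.559) with it and 3.30 (SE 0.62, limma adjusted p = 0.0172) without it. In HESKOL livers Serpine2 had -0.75, -2.28 and 0.39 with dexamethasone, against -3.13, -3.25 and -4.02 without it. These groups did not overlap, and the change of 2.58 (SE 1.06) was not called (limma adjusted p = 0.161).

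**Figure D3:**
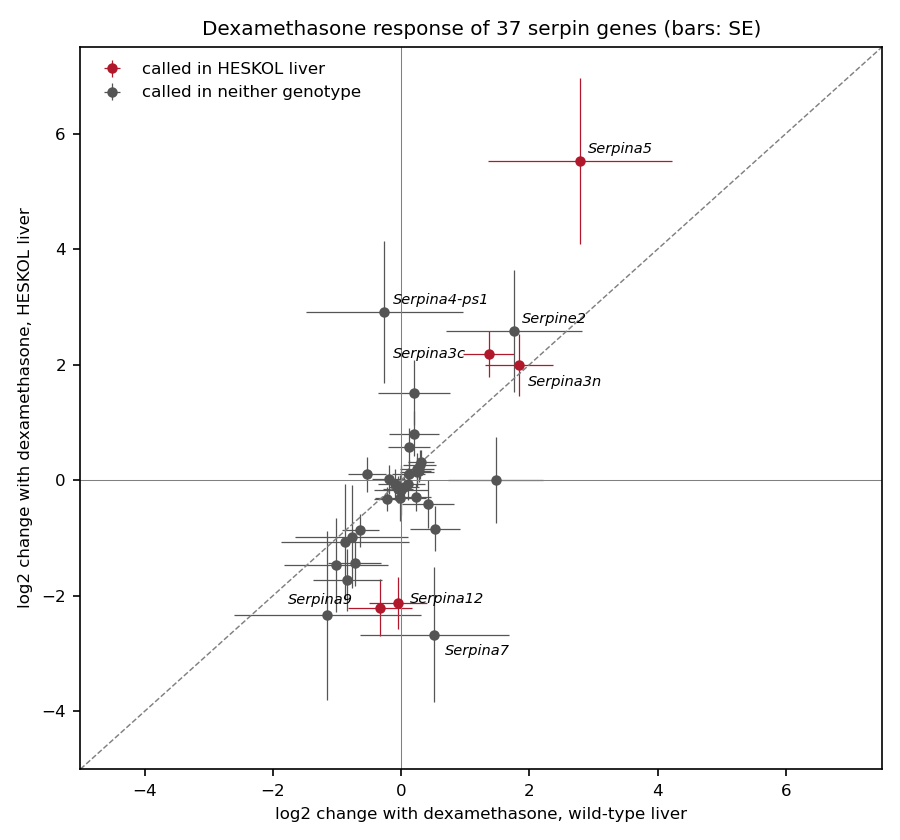
Each point is 1 of 37 tested serpin genes, with its log2 change by dexamethasone in wild-type liver on the horizontal axis and in HESKOL liver on the vertical axis, bars of 1 SE and a dashed line of equal change. Serpina3c, Serpina3n and Serpine2 lie near the line, and Serpina9 and Serpina12 lie below it at -2.21 and -2.13 in HESKOL liver.

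The difference between the responses of the genotypes was tested for every gene. No serpin gene passed, and 0.016% of all genes did. An unadjusted p under 0.05 (limma) was found for 4 of the 38 members and for 1241 of all 18700 tested. The difference, HESKOL minus wild-type response, was -2.08 (95% confidence interval -3.48 to -0.67) for Serpina12 and -1.87 (95% confidence interval -3.42 to -0.32) for Serpina9, with limma adjusted p = 0.562 and 0.647. Without wild-type dexamethasone replicate 1 it was -2.05 (limma adjusted p = 0.435) for Serpina12 and -1.93 (limma adjusted p = 0.540) for Serpina9. Hence no response of a serpin gene was shown to be particular to 1 genotype.

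Averaged over both genotypes, 3 serpin genes were called higher with dexamethasone and 5 lower, where 5.3% of all genes tested were called higher and 6.45% lower. This average shares its arrays with the comparisons above. The 3 higher genes were Serpina3c (1.78, SE 0.28, limma adjusted p = 0.00457), Serpina3n (1.92, SE 0.38, limma adjusted p = 0.0118) and Serpina5 (4.16, SE 1.02, limma adjusted p = 0.0270). Lower were Serpina9 (-1.27), Serpina12 (-1.09), Serpini1, Serpinb8 and Serpinb9. None of these 5 was called after normexp background correction or without the filter on signal, while the 3 higher genes were called under both. Without wild-type dexamethasone replicate 1 these 8 and Serpine2 (2.94, SE 0.41) were called, where the share of all genes called in either direction was 23% without it and 11.8% with it. With slide as a block none was, with 1 member at an unadjusted p under 0.05. SEs were larger under that block (0.58 against 0.28 for Serpina3c), and the share of all genes called under it is not given here.

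Serpini1, neuroserpin, which inhibits tissue plasminogen activator, had -5.60, -5.22 and -6.78 in treated and -4.37, -4.19 and -4.77 in untreated HESKOL livers. In wild-type livers it had -5.23, -6.39 and -5.81 with dexamethasone, against -4.69, -5.23 and -5.34 without it. The HESKOL groups did not overlap and the wild-type groups did. Its averaged change was -1.07 (SE 0.29, limma adjusted p = 0.0380), though after normexp background correction it was 0.09, so its direction depended on the background correction. Serpinb9, the inhibitor of granzyme B, had -3.10, -2.72 and -3.54 in treated and -2.28, -2.20 and -2.26 in untreated HESKOL livers. In wild-type livers it had -2.57, -2.96 and -3.68 with dexamethasone, against -2.53, -2.43 and -2.33 without it. Treated and untreated livers did not overlap in either genotype, and the averaged change was -0.75 (SE 0.20, limma adjusted p = 0.0378). A second Serpinb9 probe gave -0.85.

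Serpinb8, which in humans inhibits furin, had -4.88, -5.65 and -5.11 in treated and -3.76, -2.91 and -3.80 in untreated HESKOL livers, without overlap. In wild-type livers it had -3.63, -5.51 and -5.25 with dexamethasone, against -3.05, -4.11 and -4.71 without it, with overlap. Its averaged change was -1.28 (SE 0.38, limma adjusted p = 0.0494), and a second probe gave -1.47. The averaged calls of Serpinb8, Serpinb9 and Serpini1 were each lost in 10 of the 12 fits that left out 1 array, those of Serpina9 and Serpina12 in 9 and that of Serpina5 in 8. The calls of Serpina3c and Serpina3n were kept in all 12.

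Between genotypes, treated HESKOL livers were compared with treated wild-type livers. In HESKOL 2 serpin genes were lower, Serpina12 and Serpina9, and 0 were higher, where 0.417% of all genes were called lower and 0.642% higher. Serpina12 had -5.69, -7.76 and -5.87 in treated HESKOL livers, the second not above background, against -2.75, -2.81 and -2.83 in treated wild-type livers. The wild-type values were close together, and the highest HESKOL liver was far below them. The difference of -3.65 (SE 0.45, limma adjusted p = 0.00584) corresponds to 12.5-fold lower signal in HESKOL, a size that includes the background value of 1 array. Serpina9 had -4.05, -5.95 and -4.27 in treated HESKOL livers, against -1.54, -1.24 and -1.48 in treated wild-type livers, a difference of -3.34 (SE 0.50, limma adjusted p = 0.0138), or 10.1-fold.

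These 2 genotype differences were called without any 1 of the 12 arrays, and they ranged from -4.02 to -2.99 for Serpina12 and from -3.69 to -2.74 for Serpina9. They were also called under every other alternative but the fixed slide block. Within slide 3, where 3 treated HESKOL livers met 1 treated wild-type liver, the differences were -3.62 (SE 0.67, limma adjusted p = 0.140) for Serpina12 and -3.28 (SE 0.68, limma adjusted p = 0.168) for Serpina9. They are nearly as large as before, with larger errors. No member was called under that block. Of the members, 7 had an unadjusted p under 0.05 (limma), and the share of all genes under that block is not given here.

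Without treatment no serpin gene was called between genotypes, and 0% of all genes were. An unadjusted p under 0.05 (limma) was found for 3 of the 38 members and for 294 of all 18700 tested. Serpina12 had -3.84, -4.51 and -4.59 in untreated HESKOL livers, against -2.87, -2.58 and -2.77 in untreated wild-type livers, without overlap. The difference of -1.57 (SE 0.45) had a limma adjusted p = 0.99999. For Serpina9 the signals were -1.73, -3.38 and -2.54 in untreated HESKOL livers and -0.89, -0.96 and -1.40 in untreated wild-type livers, with a difference of -1.47 (SE 0.50), likewise without overlap and not called. Within slide 1 the differences were -1.10 for Serpina12 and -0.64 for Serpina9. Over the family, untreated groups of arrays did not overlap for 3 members higher and 6 lower in HESKOL, where 6.35% of all genes tested did not overlap. After dexamethasone 0 were higher and 4 lower, where 18.2% of all genes tested did not overlap.

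Serpina9 and Serpina12 lie side by side in the cluster. Their probes are at positions 101491069 to 101491128 and 101523017 to 101523076 of chromosome 12 on the mm7 build of the array design, both on the minus strand and 31.9 kb apart. The cluster of 18 member genes spans 785.7 kb there. On one side the next measured gene is Serpina11, at -0.21 (SE 0.20) between treated genotypes, and on the other Serpina4-ps1, at -0.69 (SE 1.22). Neither was called.

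**Figure D4:**
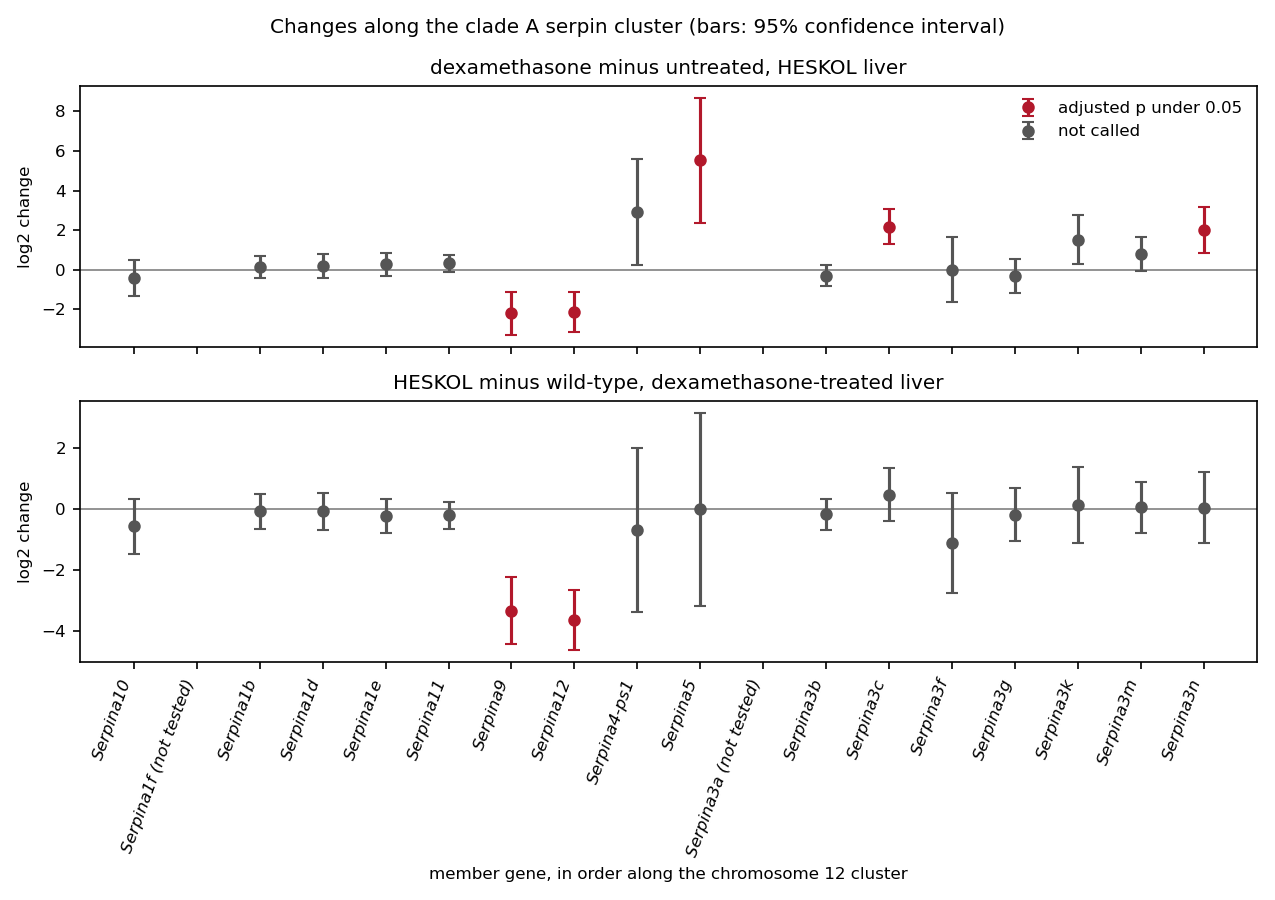
The 18 member genes of the chromosome 12 cluster are placed in their order along the chromosome, with the log2 change by dexamethasone in HESKOL liver above and the difference between treated HESKOL and treated wild-type liver below, bars being 95% confidence intervals from the limma fit. In the lower panel only the neighbours Serpina9 and Serpina12, at -3.34 and -3.65, are called, and in the upper panel Serpina3c, Serpina3n and Serpina5 are called higher while the Serpina1 genes stay near 0.

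No call was made for 8 serpins of blood plasma, grouped here after their values were seen: the alpha-1-antitrypsin genes Serpina1b, Serpina1d and Serpina1e, which restrain neutrophil elastase, Serpinc1 (antithrombin), Serpind1 (heparin cofactor II), Serpinf1 (pigment epithelium-derived factor), Serpinf2 (alpha-2-antiplasmin) and Serping1 (C1 inhibitor). Over the 2 treatment comparisons and the 2 genotype comparisons their log2 differences lay between -0.23 and 0.29. The 95% confidence intervals reached at most from -0.79 to 0.85, so smaller changes are not excluded.

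Serpinc1 had 7.56, 8.12 and 7.90 in treated HESKOL livers, 7.88, 7.49 and 8.39 in untreated HESKOL livers, 8.15, 8.10 and 7.64 in treated wild-type livers and 7.61, 7.89 and 8.10 in untreated wild-type livers. The 4 groups overlapped throughout. Serpina1b had 7.69, 8.13 and 8.09 in treated HESKOL livers, 7.90, 7.39 and 8.20 in untreated HESKOL livers, 8.14, 8.24 and 7.74 in treated wild-type livers and 7.52, 7.79 and 8.07 in untreated wild-type livers, again with overlap. Serping1 had 6.61, 6.79 and 6.19 in treated HESKOL livers, 6.46, 6.38 and 6.28 in untreated HESKOL livers, 6.38, 6.38 and 6.53 in treated wild-type livers and 6.20, 6.10 and 6.16 in untreated wild-type livers. Its untreated wild-type livers were below all others except treated HESKOL replicate 3, by small steps.

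None of the other tested copies of the SERPINA3 group was called in any comparison; whether they differ from Serpina3c and Serpina3n was not tested. Serpina3k, a relative of kallistatin, had 8.80, 9.19 and 9.20 in treated HESKOL livers, against 7.48, 6.11 and 9.05 in untreated HESKOL livers. Untreated replicate 3 lay among the treated livers, and the change of 1.51 (SE 0.56) was not called (limma adjusted p = 0.124). Without that array Serpina3k rose by 2.26 (SE 0.40, limma adjusted p = 0.0146). Without HESKOL untreated replicate 2, the lowest liver, the change was 0.80 (SE 0.43, limma adjusted p = 0.367). Serpina3k was called in 1 of the 12 fits that left out 1 array. A second Serpina3k probe gave 0.58 with all arrays. With dexamethasone in HESKOL liver the difference was 0.81 (SE 0.39, limma adjusted p = 0.224) for Serpina3m, whose probe was saturated on 2 of the 12 arrays, -0.31 (SE 0.40) for Serpina3g, -0.29 (SE 0.24) for Serpina3b and 0.01 (SE 0.74) for Serpina3f.

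Several other clade A members varied widely between mice of a group. Serpina7, thyroxine-binding globulin, had 2.53, 2.42 and -1.74 in treated HESKOL livers and 4.53, 4.46 and 2.23 in untreated HESKOL livers. In wild-type livers it had 3.74, 1.26 and 0.76 with dexamethasone and 2.44, 0.61 and 1.15 without it. Its change in HESKOL liver was -2.67 (SE 1.16, limma adjusted p = 0.184), and the groups overlapped. Serpina4-ps1, named as a pseudogene, had 0.94, -0.44 and 2.69 in treated HESKOL livers, -0.76, -3.63 and -1.16 in untreated HESKOL livers, -0.89, 1.75 and 4.40 in treated wild-type livers and 1.78, 2.75 and 1.504 in untreated wild-type livers. Untreated HESKOL livers lay below both treated HESKOL and untreated wild-type livers, but neither the change with dexamethasone (2.91, SE 1.22, limma adjusted p = 0.171) nor the genotype difference (-3.86, SE 1.22, limma adjusted p = 0.99999) was called. With slide as a block the change with dexamethasone became -0.52.

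Serpina10, the inhibitor of clotting factor X that depends on protein Z, had a difference of -0.41 (SE 0.41) with dexamethasone in HESKOL liver, and its second probe gave -1.21. The difference was 0.32 (SE 0.20) for Serpina11 and -0.17 (SE 0.43) for Serpini2, and none of the 3 was called. The collagen chaperone Serpinh1 had 1.08, 0.82 and -0.23 in treated HESKOL livers, against 1.48, 2.20 and 1.96 in treated wild-type livers. The groups did not overlap, and the difference of -1.32 (SE 0.39) was not called (limma adjusted p = 0.135). The median SD within a group was 0.529 for the 38 serpin genes and 0.390 for all genes tested.

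**Figure D5:**
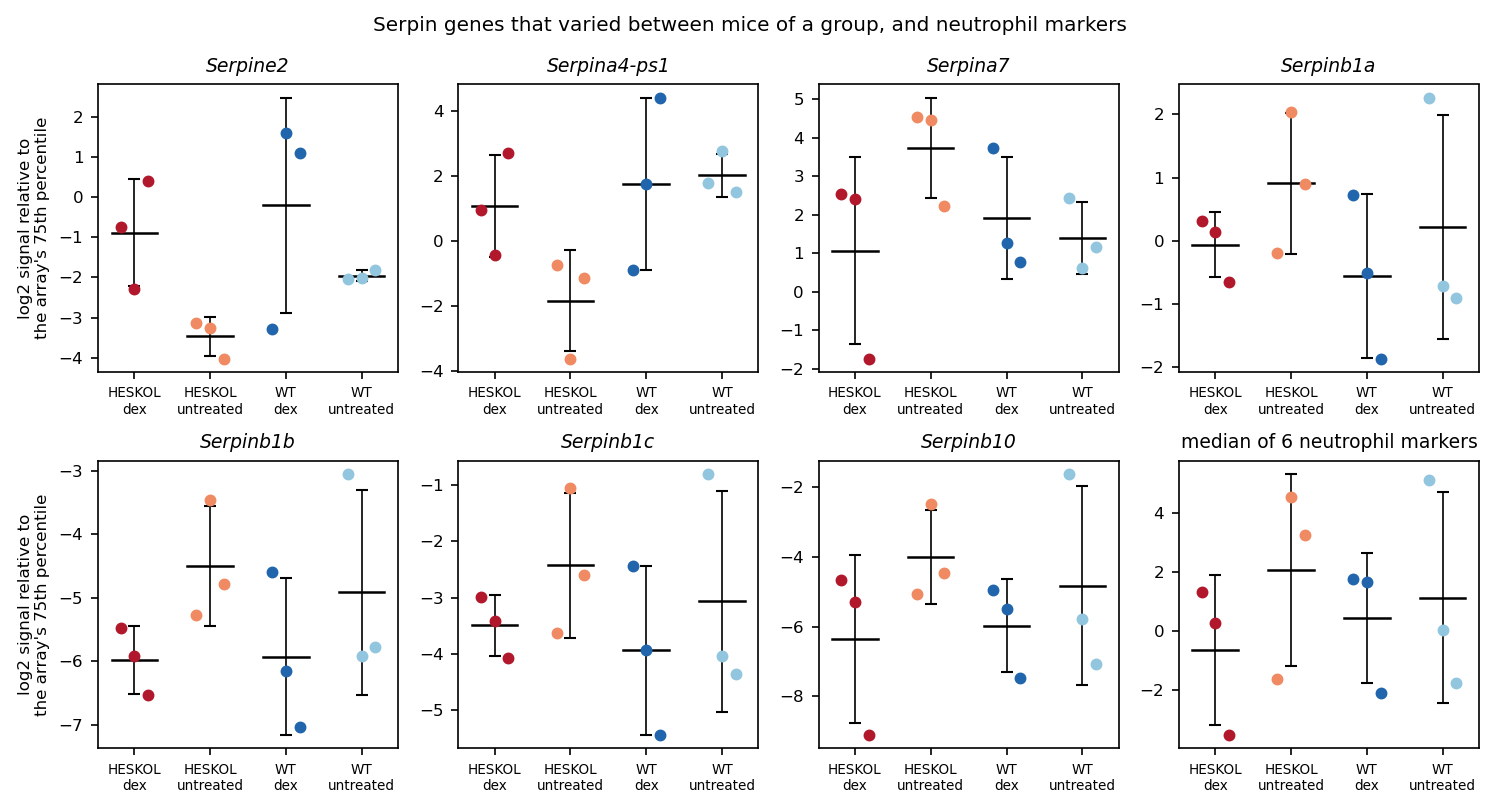
Points are the log2 signals of single mice, relative to the 75th percentile of the array, with the group mean and 1 SD (n = 3), for 7 serpin genes that varied between mice and for the median of 6 neutrophil markers. Wild-type dexamethasone replicate 1 is the lowest array of its group for Serpine2 at -3.27, and for Serpinb1a, Serpinb1b, Serpinb1c, Serpinb10 and the neutrophil markers wild-type untreated replicate 1 and HESKOL untreated replicate 2 are the highest arrays.

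Among the clade B serpins of leukocytes, single mice stood out within groups. Serpinb1a, an inhibitor of neutrophil elastase and cathepsin G, had 0.32, 0.14 and -0.64 in treated HESKOL livers, -0.19, 2.03 and 0.90 in untreated HESKOL livers, 0.72, -0.51 and -1.87 in treated wild-type livers and 2.27, -0.71 and -0.90 in untreated wild-type livers. The highest array was wild-type untreated replicate 1, followed by HESKOL untreated replicates 2 and 3. Serpinb10 had the same 3 arrays on top, and Serpinb1b and Serpinb1c had the first 2 of them. Serpinb8, called lower in the averaged comparison, also had these 2 on top, with HESKOL untreated replicate 2 the higher. The medians of 6 neutrophil markers (S100a8, S100a9, Mpo, Camp, Ngp and Ltf) were 1.31, 0.29 and -3.54 in treated HESKOL livers, -1.64, 4.54 and 3.27 in untreated HESKOL livers, 1.75, 1.66 and -2.10 in treated wild-type livers and 5.13, 0.04 and -1.77 in untreated wild-type livers. All 6 markers were above background on every array, the log2 of their summed signal ran from 1.19 to 5.24 in treated HESKOL, 3.25 to 8.12 in untreated HESKOL, 4.20 to 7.38 in treated wild-type and 3.91 to 8.52 in untreated wild-type livers, and no probe stood for Ly6g.

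The 3 arrays with the highest neutrophil markers were those with the highest Serpinb1a and Serpinb10. The part of neutrophils in these serpin values, and in those of Serpinb1b, Serpinb1c and Serpinb8, was not tested. In whole liver, fewer cells of a type and less RNA per cell cannot be told apart. With dexamethasone in HESKOL liver the difference was -0.97 (SE 0.88) for Serpinb1a and -2.34 (SE 1.46) for Serpinb10, and neither was called. For Serpinb8 and Serpinb9, which were called in the averaged comparison, Kupffer cell and macrophage markers are given beside them. Of 7 such markers 1 was called in that comparison, Adgre1 (-1.03, SE 0.29, limma adjusted p = 0.0440), the median change of the list was -0.61, and the log2 of its summed signal was 5.51 to 6.78 in treated HESKOL, 6.23 to 7.35 in untreated HESKOL, 5.62 to 6.67 in treated wild-type and 5.85 to 7.06 in untreated wild-type livers. Their part in the result was not tested. Serpinb6a, which inhibits cathepsin G, had differences of -0.12 (SE 0.24) in HESKOL and 0.04 (SE 0.24) in wild-type liver and was not called.

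Adipocyte markers are given beside Serpina12, which is known as a product of fat tissue. Of 5 markers, 2 were tested. Adipoq, Plin1 and Lep were not tested, and Lep was not above background on any array. With dexamethasone in HESKOL liver, the 2 tested markers Fabp4 (1.92, SE 0.39, limma adjusted p = 0.0175) and Cidec (5.68, SE 0.66, limma adjusted p = 0.00186) rose. Cidec was also higher in treated HESKOL than in treated wild-type liver (3.43, SE 0.66, limma adjusted p = 0.0400). The log2 of the list's summed signal was 4.91 to 6.12 in treated HESKOL, 2.09 to 3.01 in untreated HESKOL, 3.53 to 4.53 in treated wild-type and 2.22 to 2.58 in untreated wild-type livers. The median log2 signal of the list was low and overlapped in both genotypes. It was -7.01 to -6.35 in treated and -7.78 to -6.85 in untreated HESKOL livers. In wild-type livers it was -7.42 to -6.20 with dexamethasone and -8.15 to -6.25 without it. The part of adipocytes in the Serpina12 values was not tested.

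The proteases that serpins inhibit and the proteins that bind them were followed in a list of 41 genes, all tested. With dexamethasone in HESKOL liver 2 of them were called higher and 1 lower, with a median change of 0.04. These 3 are 7.32% of the list, near the 7.87% of all genes tested that were called in either direction, so the count is no result about the list. All 3 calls were lost with slide as a fixed block, on the deposited table, and in 5 of the 12 fits that left out 1 array (HESKOL dexamethasone replicate 3, each of the 3 HESKOL untreated livers and wild-type untreated replicate 2). Furin, a convertase that activates precursor proteins, rose by 0.94 (SE 0.23, limma adjusted p = 0.0339). Thbd, thrombomodulin, through which thrombin activates protein C, the protease that Serpina5 inhibits, rose by 1.66 (SE 0.41, limma adjusted p = 0.0347). Gzmb, the granzyme that Serpinb9 and Serpina3n inhibit, fell by 2.61 (SE 0.64, limma adjusted p = 0.0339). Of 6 T and NK cell markers none was called in that comparison, with a median change of -1.14 over the list, and the log2 of their summed signal was -1.27 to -0.54 in treated and -0.14 to 1.22 in untreated HESKOL livers, without overlap. In wild-type livers it was -1.42 to 0.23 with dexamethasone and -0.29 to 1.24 without it. The part of these cells in the Gzmb value was not tested.

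In wild-type liver none of the 41 was called. An unadjusted p under 0.05 (limma) was found there for 5 of them and for 2197 of all 18700 tested. Thbd had a change of 2.12 (SE 0.41, limma adjusted p = 0.0966) there, Furin 0.28 (SE 0.23) and Gzmb -0.35 (SE 0.64). In the average of both genotypes Furin, Thbd and Ctsl, the lysosomal protease cathepsin L, were the only ones of the 41 called, all higher. Of all genes tested, 11.8% were called in either direction in that comparison, so these calls are no result about the list. None of the 41 was called between genotypes. Those with an unadjusted p under 0.05 (limma) were 4 after dexamethasone and 2 without it. Of all 18700 tested, 2939 and 294 had such a p. The nearest to a call was Plau, the urokinase that activates plasminogen, at 2.25 (SE 0.49, limma adjusted p = 0.0593) in treated HESKOL over treated wild-type liver.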

How the data were processed

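Total RNA from 12 mouse livers was measured on one-colour arrays, 500 ng labelled with Cy3, per the labels' protocols. Groups came from the sample titles. The deposited array files hold spot intensity values that the authors extracted, per the file headers, with version 9.5.3.1 of Agilent's Feature Extraction software (9.5 in the submitters' processing notes), on a design drawn on mm7. The processed signal is a background-subtracted linear intensity. The deposited series table holds the same intensity values (ratio 1 on each array), with column medians of 53.7 to 112, so it is neither scaled between arrays nor centred.

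Here, log2 processed signals were scaled by subtracting each array's 75th percentile (896 to 1616 units). Outlier spots were left out and saturated spots kept. The brightest probe stood for a gene, and unnamed probes stood for themselves. Of 27769 such features, the 18700 above background on all 3 arrays of a group were tested (61.5% to 71.9% of probes were above background on each array). Group means were fitted with limma 3.58.1 in R 4.3.3 (8 residual and 3.12 prior degrees of freedom). The fit was tested on simulated data. Members named were all those called and a fixed list with known roles, the rest being given by counts and ranges. Serpina3b, Serpina4-ps1, Serpinb1b, Serpinb1c and Serpinb10 were singled out after their values were seen. Members, partner and marker lists were chosen with earlier results of these data known. The labels state no pairing by replicate number, and the mice were fitted as unpaired. Deviations from the group means correlated from -0.401 to 0.623 in same-number pairs, with 6 of 18 above 0.1. With 3 arrays per group this cannot settle whether mice were paired. Alternatives were quantile normalization, normexp correction, the deposited table, no filter, the mean of all probes, slide or replicate blocks and leaving out each array. Serpina6 was not analysed here. The values of 1 tested member are not reported here, although it enters the counts and medians.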

Additional observations from a re-analysis of the deposited data

How the results depend on the processing

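With dexamethasone in HESKOL liver, 5 serpin genes and 3 of the 41 partner genes were called. The counts below lack the share of all genes called under each setting. Their shifts are therefore no result about serpins or partners. In HESKOL liver that share was 14.9% without wild-type dexamethasone replicate 1 and 7.87% with it. The serpin count was 2 after normexp correction, 3 on the deposited table, 3 without the filter, 0 with slide as a fixed block and 8 with slide as a random block. The partner count was 1, 0, 1 and 0 under the first 4 of these and 1 with the replicate block, which left the serpin count at 5. Over the arrays left out in turn the counts ran from 0 to 9 and from 0 to 5. Averaged over genotypes, the serpin count of 8 was 5 after quantile normalization, 4 after normexp correction, 3 without the filter and 0 with slide as a fixed block, and 2 to 9 with an array left out. The 4 after normexp correction and the 3 without the filter were all higher. The partner count of 3 was 1 without the filter, 0 and 7 with slide as a fixed and a random block, and 1 to 9 with an array left out. In wild-type liver leaving out an array gave 0 to 5 serpins and 0 to 3 partners. Between treated genotypes the serpin count of 2 was 0 with slide as a fixed block and stayed at 2 to 2 with any array left out, and the partner count of 0 was 1 on the deposited table, 1 with slide as a random block and 0 to 1 with an array left out. Counts between untreated genotypes and for the difference between responses were 0 under all alternatives run. Of 800 recomputed changes, 796 kept their sign. Serpina4-ps1 became -0.52 with dexamethasone in HESKOL liver and -0.57 in the difference between responses with slide as a fixed block, and after normexp correction Serpini1 became 0.0907 in the average and Serpina5 -0.20 in the difference. The cause was not tested. The replicate block changed no count of serpins in any comparison, although Serpina3n was replaced by Serpini1 among those called in HESKOL liver. Of the tested serpins, 6 were not above background on every array: Serpinb10 and Serpini2 on 9 of 12, Serpina5 on 10, and Serpina12, Serpina3b and Serpinb1b on 11, which limits their values.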
